A study of Mus musculus with 2 samples.

Results

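Digital footprints that lay outside every called peak were examined in 2 DNase-seq libraries of mouse frontal cortex. They were chosen by measured values: a footprint on chromosomes 1 to 19 was a member when no peak of either list of the same library overlapped it by as much as 1 bp. This left 11966 of 110333 footprints in replicate 1 (10.8%, 95% Wilson interval 10.66 to 11.03%) and 27538 of 245445 in replicate 2 (11.2%), a mean of 11.03 ± 0.26% (SD, n = 2). Over all chromosomes the footprint lists held 112826 and 250543 intervals in replicates 1 and 2. Members are called outside footprints here, and the other 98367 and 217907 footprints of these chromosomes, each touched by a peak of its own library, are called inside footprints.

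Both libraries came from frontal cortex tissue of 36-day female mice of strain B6CASTF1/J, F1 hybrids carrying 1 allele of each parental strain, with no treatment. The labels give 1 group with 2 biological replicates from separate tissue records that share 1 donor label, so no comparison between conditions exists, and whether the replicates are separate animals is not given. Bulk tissue mixes neurons, glia and vascular cells, so fewer cells with a footprint and weaker protection per cell cannot be told apart. Each library came with 2 peak lists, called the shorter list (28969 and 64912 peaks on chromosomes 1 to 19 in replicates 1 and 2) and the longer list (54602 and 114674 peaks), both with a median peak width of 200 bp. The sources used here do not give read depth. As a check of the tissue label, 15 of 20 excitatory neuron markers and 0 of 15 liver genes carried a peak in both replicates at 500 bp or less from a transcription start site (TSS), beside 12309 of 20807 protein-coding genes. Of other cortical cell types, 12 of 15 astrocyte, 6 of 17 oligodendrocyte lineage, 4 of 15 vascular, 3 of 20 inhibitory neuron and 3 of 14 microglia genes did.

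DNase I cuts DNA where nucleosomes leave it exposed, and stretches with many cuts are called as peaks of accessible chromatin. A protein bound within such a stretch shields the bases it contacts, so that a short run of bases is cut less often than its surroundings; that run is a footprint. Promoters and enhancers of active genes are typical sites of both, and CTCF, the zinc-finger protein that anchors chromatin loops, is known for leaving a long and deep footprint. In general, a footprint call uses cleavage at single bases and a peak call uses cleavage density over a wider window. The sources used here do not name the callers of these lists, and why some footprints lie outside peaks was not tested.

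Sequences of outside footprints are shown first, as examples picked for a motif match or a long run. They are not typical: the median outside footprint was 8 bp wide in both replicates. A centred match of any of 30 motifs lay in 6.11% of outside footprints in replicate 1 and 6.79% in replicate 2. For motifs, the lines give the widest interval, among those that could be printed, that was outside peaks in both replicates and contained the midpoint of a consensus match. The match is shown with 25 bases on each side and may run past the footprint's ends. The bases are those of the RefSeq GRCm38 (mm10) reference, the sequence of the reference strain, and alleles of the other parental strain are not shown. Capitals mark the consensus.
CTCF, chr8:126497641-126497702 (+ strand): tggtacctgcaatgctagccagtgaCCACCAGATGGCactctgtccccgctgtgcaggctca
SP/KLF, chr3:95819349-95819407 (- strand): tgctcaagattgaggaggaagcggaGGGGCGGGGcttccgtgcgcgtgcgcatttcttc
ETS, chr14:25693949-25694006 (- strand): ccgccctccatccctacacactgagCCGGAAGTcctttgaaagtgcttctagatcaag
E-box CACGTG, chr2:121449126-121449181 (+ strand): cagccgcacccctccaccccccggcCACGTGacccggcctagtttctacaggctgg
E-box CAGCTG, chr15:102052114-102052169 (+ strand): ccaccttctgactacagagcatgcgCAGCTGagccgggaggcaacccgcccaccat
NRF1, chr11:102556395-102556456 (+ strand): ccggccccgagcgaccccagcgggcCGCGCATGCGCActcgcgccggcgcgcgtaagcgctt
The CTCF interval is intergenic, at -22611 bp from the nearest protein-coding TSS, that of Tarbp1, and its footprint was 31 bp wide in replicate 1 and 33 bp in replicate 2. It lay 9 and 7 bases from the nearest peak of its own library. The SP/KLF interval is intergenic at -508 bp from the TSS of Rprd2, with footprints of 36 and 37 bp lying 31 bases from a peak in both replicates. The ETS, CACGTG and NRF1 intervals are promoter sequence of Ppif (-177 bp), Serf2 (-43 bp) and Gpatch8 (-44 bp), and the CAGCTG interval is intergenic. The footprint at the ETS interval was 7 bp wide in both replicates. The NRF1 interval was added after its values were seen, while the others came from the rule for named sites.

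Outside footprints often lay near another outside footprint. The line below is the longest run of such footprints in replicate 2, at spacings of at most 100 bp, that could be printed, and was picked after its values were seen. Capitals mark the outside footprints.
Pex5l promoter, replicate 2, chr3:33143195-33143451 (+ strand): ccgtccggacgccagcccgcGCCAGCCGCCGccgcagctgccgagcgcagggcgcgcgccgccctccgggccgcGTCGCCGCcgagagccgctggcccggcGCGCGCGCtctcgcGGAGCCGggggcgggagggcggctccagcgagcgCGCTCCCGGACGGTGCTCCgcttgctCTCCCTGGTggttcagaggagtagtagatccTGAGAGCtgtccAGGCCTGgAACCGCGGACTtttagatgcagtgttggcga
The run held 9 outside footprints, which covered 87 bases. They lay 34 to 240 bases from the nearest peak of replicate 2, and 2 of them met a footprint of replicate 1, although all 9 lay in a peak of that replicate.

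Outside footprints sat at the edges of peaks. The median distance to the nearest peak of the same library was 45 bases in replicate 1 (quartiles 20 and 83) and 42 bases in replicate 2 (quartiles 17 and 83), and 90% lay within 131 and 135 bases. Within 20 bases of a peak lay 25.3% and 29.3% of them, and 2.63% and 3.08% lay more than 200 bases away. The farthest were 700 bases from a peak in replicate 1 and 587 in replicate 2. These distances follow in part from the rule and are a description. At the line itself, 174 outside footprints of replicate 1 and 463 of replicate 2 adjoined a peak with 0 bases between, while 158 and 458 inside footprints were touched by a single base of a peak.

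**Figure D1:**
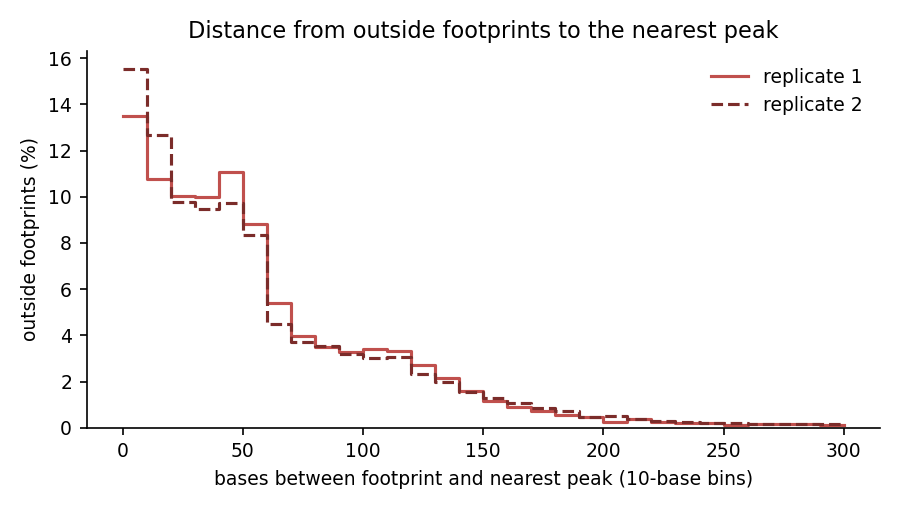
Share of outside footprints (y axis, percent) by the number of bases between the footprint and the nearest peak of its own library (x axis, 10-base bins, drawn to 300 bases). Solid line, replicate 1; dashed line, replicate 2; the medians are 45 and 42 bases, and both curves hold a shoulder up to about 60 bases before they fall.

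Many outside footprints had another nearby, although most runs held only 1. Of the outside footprints, 17.7% in replicate 1 and 16.2% in replicate 2 lay between 2 peaks, each within 300 bases. They formed 8451 runs in replicate 1 and 19091 in replicate 2, of which 71.8% and 71.6% were single footprints and 719 and 1820 held 3 or more. Of the longer-list peaks, 13.9% in replicate 1 and 14.5% in replicate 2 were the nearest peak of at least 1 outside footprint. The nearest peak belonged to the shorter list for 70.4% and 78.1% of outside footprints. In 5 equal classes of the nearest peak's signal, from low to high over all footprints of the library, the share outside peaks was 14.3%, 9.34%, 8.10%, 9.68% and 12.8% in replicate 1 and 12.3%, 8.48%, 7.60%, 9.31% and 18.4% in replicate 2. In both libraries the share was lowest in the middle class and higher at both ends.

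The longest runs lay at promoters. The 5 with the most footprints per replicate all lay at promoters, the farthest at -138 bp from a protein-coding TSS. In replicate 1 the longest was at G3bp1, which encodes a core protein of stress granules, with 11 outside footprints over 499 bp. It was followed by runs of 10 at Ptbp1, a repressor of neuronal splicing, at Arid4a, at Gm29609 and at Wasl, an activator of actin branching. In replicate 2 a run of 16 footprints over 575 bp lay at 1810013L24Rik, with runs of 11 at Spin1 (a histone mark reader), and at Raly and Hnrnpul1 (RNA-binding proteins of the nuclear ribonucleoprotein family). Of the 11 at G3bp1, 9 met a footprint of replicate 2 and all 11 lay in a peak of that replicate. Of the 11 at Hnrnpul1, 9 met a footprint of replicate 1 and 0 lay in a peak of it. By the smaller of the counts in the 2 replicates within 500 bp of 1 TSS, an order chosen after the values were seen, Hnrnpul1 came first with 10 in replicate 1 and 9 in replicate 2. Next were Tle1, a Groucho-type corepressor, with 9 and 8, and Dusp22, a phosphatase, with 7 and 9.

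Outside footprints were promoter-rich, and more so than inside footprints. Promoters, taken as 500 bp to each side of any TSS, held 61.8% of outside footprints in replicate 1 (Wilson interval 60.9 to 62.7%) against 53.2% of inside footprints, and 49.7% against 35.7% in replicate 2, while 3.38% of the bases of chromosomes 1 to 19 are promoter. The difference, outside minus inside, was 11.2 ± 3.79 percentage points (SD, n = 2) and had the same sign in both replicates. It turned to -20.5 percentage points when the shorter peak list alone defined inside, a setting under which 32.4% of all footprints fell outside. Introns held 17.3% of outside footprints against 21.1% of inside footprints in replicate 1, and 25.1% against 32.2% in replicate 2. Intergenic sequence held 16.3% against 21.001%, and 20.8% against 26.7%. Exons away from promoters held 4.54% against 4.67%, and 4.36% against 5.34%. Introns and intergenic sequence make up 41.9% and 50.9% of these chromosomes.

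**Figure D2:**
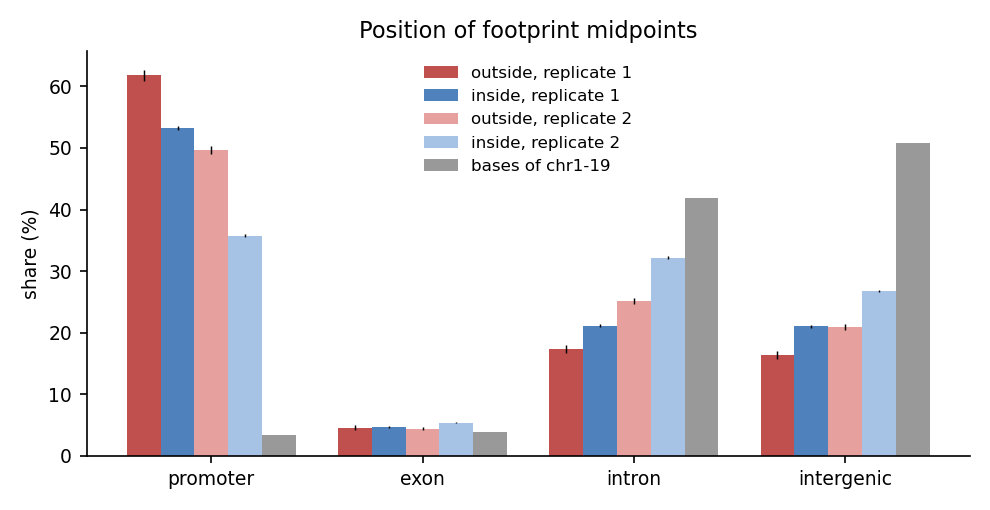
Share of footprint midpoints (y axis, percent) in 4 position classes (x axis) for outside and inside footprints of each replicate, with 95% Wilson intervals for counting error, and the share of the bases of chromosomes 1 to 19 in grey. The promoter bars of the outside footprints, at 61.8% and 49.7%, stand above those of the inside footprints of the same replicate.

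Relative to protein-coding TSSs, outside footprints were spread more widely over the promoter. More than 100 and up to 500 bp from the nearest such TSS lay 32.1% of outside footprints against 19.7% of inside footprints in replicate 1, and 26.6% against 13.4% in replicate 2. Downstream, at 100 to just under 300 bp into the gene, the shares were 11.5% against 4.85%, and 9.38% against 3.34%. In the 100 bp just upstream of the TSS the order was reversed, with 14.8% of outside and 18.8% of inside footprints in replicate 1, and 9.54% and 11.7% in replicate 2. Beyond 10 kb from any protein-coding TSS lay 23.0% of outside against 29.2% of inside footprints, and 32.6% against 42.7%. The promoter share also rose with distance from the peak. It was 53.0% and 44.5% among outside footprints within 20 bases of a peak in replicates 1 and 2, and 79.0% and 69.7% among those more than 200 bases away.

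**Figure D3:**
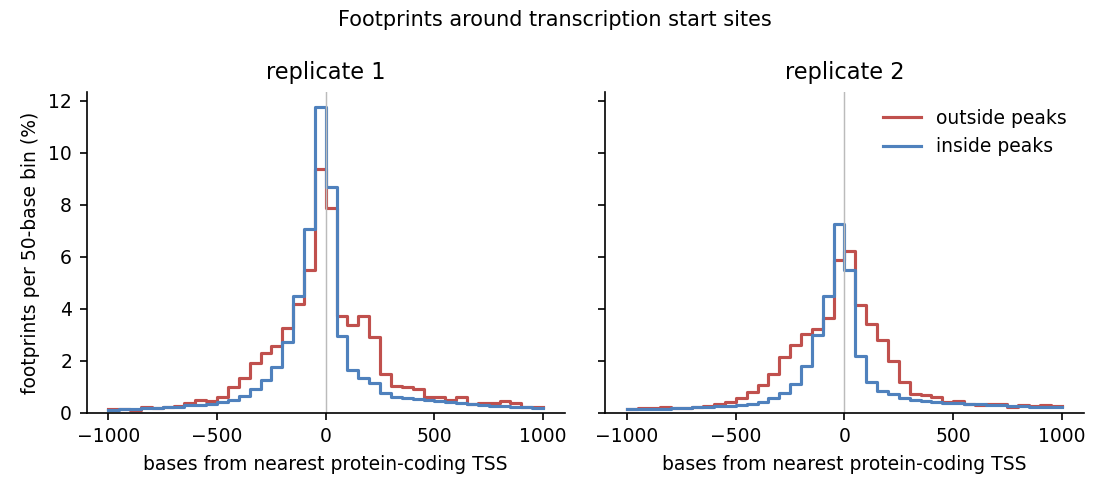
Share of footprints (y axis, percent per 50-base bin) by distance of the midpoint from the nearest protein-coding TSS (x axis, bases; negative values are upstream) for outside footprints (red) and inside footprints (blue), 1 panel per replicate. The outside curves carry wider shoulders on both sides, and in the 100 bases just upstream the inside curves are higher.

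Outside footprints were short. Their median width was 8 bp in both replicates against 9 bp for inside footprints, and the mean was 9.59 and 9.66 bp against 11.8 and 11.7 bp. The minimum of the lists, 7 bp, was the width of 39.8% and 39.7% of outside footprints and of 30.2% and 30.5% of inside footprints. At 20 bp or more were 3.68% and 3.94% of outside footprints against 11.6% and 11.6% of inside footprints. The widest outside footprints were 48 and 52 bp, and the widest inside footprints 80 and 77 bp. The share of 20 bp or more was lower outside than inside at promoters (4.52% against 10.3% in replicate 1, 5.29% against 13.1% in replicate 2) and elsewhere (2.32% against 12.99%, and 2.60% against 10.7%).

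Over all positions, base composition hardly separated the sets. G+C made up 65.7% of outside footprint bases against 65.6% of inside footprint bases in replicate 1, and 62.4% against 61.8% in replicate 2, with 41.9% over chromosomes 1 to 19. Away from promoters outside footprints had less G+C, 56.9% against 59.8% and 54.7% against 57.1%. The bases 11 to 60 bp from outside footprints had 58.9% and 56.5% G+C. Repeat sequence, lower case in the reference, held 7.44% and 9.25% of outside against 5.90% and 7.37% of inside footprints, and 33.5% of the genome. The share of footprints lying outside peaks was similar on all chromosomes, from 9.86% on chromosome 9 to 11.7% on chromosome 3 in replicate 1, and from 10.4% on chromosome 4 to 11.9% on chromosome 11 in replicate 2.

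The authors' cleavage table lists intervals with a false discovery rate (FDR) below 0.05, and outside footprints lay almost entirely in listed sequence of their own library. A listed interval met 98.4% of outside footprints in replicate 1 and 99.02% in replicate 2, against 99.4% and 99.6% of inside footprints. An FDR of 0.001 or less was reached at 65.5% and 73.6% of outside against 75.5% and 78.1% of inside footprints. Of outside footprints more than 200 bases from a peak, 77.5% and 84.9% reached it. The median of the lowest FDR was 1.38e-05 outside against 1.11e-06 inside in replicate 1, and 1.10e-07 against 2.28e-07 in replicate 2, so its order differed between the replicates. Listed stretches, joined over gaps of 20 bp, had a median length of 696 and 815 bp around outside footprints against 550 and 538 bp around inside footprints. Per kb of listed sequence outside peaks there were 1.92 and 1.82 outside footprints, against 8.30 and 8.51 inside footprints per kb of peak. Peaks, footprints and this table share their reads, and the footprints were made with this table. The share of footprints in listed sequence thus follows in part from the calling, and these values are a description.

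The other replicate, which the rule did not use, held a footprint at 39.3% of the outside footprints of replicate 1 (Wilson interval 38.5 to 40.2%) and at 15.8% of those of replicate 2. For inside footprints the shares were higher, 56.5% and 24.5%. An 8 bp interval placed at every position of chromosomes 1 to 19 would meet a footprint of the other replicate at 0.185% and 0.0832% of positions. These positions are not restricted to accessible sequence, where the footprints lie. The part of shared accessibility in the overlaps was not tested. Replicate 2 lists more footprints and peaks than replicate 1, so the shares of the replicates have unlike ceilings, and they were read within a replicate. A peak of the other replicate covered 59.1% and 34.5% of outside footprints, against 89.4% and 56.0% of inside footprints and 1.10% and 0.510% of positions. The gap between outside and inside held in the same direction in both replicates for footprints and for peaks. The rule left out peaks of the own library, and both libraries are of the same tissue. The lower share in peaks of the other replicate thus follows in part from the rule and is a description. The part of the rule in the footprint gap was not tested.

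By a ranking that counted a footprint before a peak and a peak before a listed interval, replicate 2 held a footprint at 39.3%, only a peak at 33.1%, only a listed interval at 24.8% and none of these at 2.76% of the outside footprints of replicate 1. Replicate 1 held them at 15.8%, 24.1%, 23.0% and 37.1% of those of replicate 2. The outside footprints of replicate 1 met an inside footprint of replicate 2 more often (26.6%) than an outside one (12.8%), and those of replicate 2 did likewise (10.4% and 5.41%). Inside footprints are the larger set, 217907 against 27538 in replicate 2 and 98367 against 11966 in replicate 1. Inside footprints of replicate 1 met an inside one of replicate 2 at 53.6% and an outside one at 2.99%. For inside footprints of replicate 2 these shares were 23.1% and 1.41%. Outside footprints thus met an outside one more often than inside footprints did, in both replicates. This order follows in part from how the sets were defined, because an outside footprint overlaps no peak of its replicate. Peaks of the other replicate covered 89.4% and 56.0% of inside footprints, against 59.1% and 34.5% of outside footprints. The outside footprints that lay in no peak of the other replicate either were a median of 69 bases from its nearest peak in replicate 1 and 146 bases in replicate 2. With distance from its own peak (classes ending at 20, 50, 100 and 200 bases, and beyond), the share of outside footprints in a peak of the other replicate was 62.1%, 68.8%, 58.7%, 41.6% and 30.8% in replicate 1. In replicate 2 it was 36.5%, 33.2%, 34.0%, 34.5% and 30.5%, so the drop with distance was seen in replicate 1 and hardly in replicate 2.

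**Figure D4:**
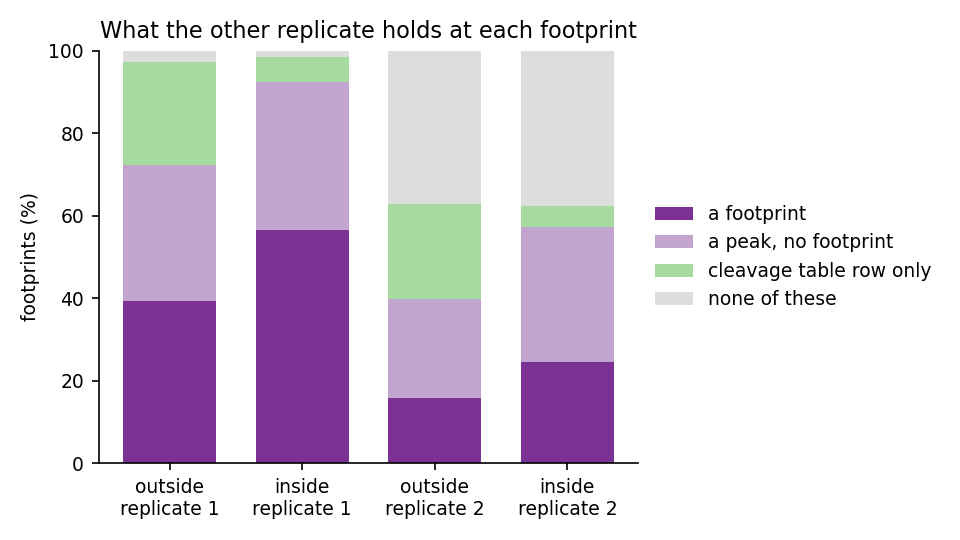
What the other replicate holds at the outside and inside footprints of each replicate, as stacked shares (y axis, percent). Dark purple, a footprint; light purple, a peak and no footprint; green, a listed interval of the cleavage table alone; grey, none of these. The footprint share was 39.3% outside and 56.5% inside in replicate 1, and 15.8% and 24.5% in replicate 2.

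Intervals outside peaks in both replicates made 1577 overlapping pairs, of 1527 footprints of replicate 1 and 1489 of replicate 2, and 87 pairs had the same start and end. Those of replicate 1 had a promoter share of 74.3%, against 61.8% over all its outside footprints. Their mean width was 11.2 bp against 9.59 bp, and their median distance to a peak was 47 bases.

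Exact matches to 30 consensus sequences, on both strands, were counted where the midpoint of the match lay in footprint bases, and a base could count for more than 1 motif. Of the outside footprints 6.11% in replicate 1 and 6.79% in replicate 2 held a centred match of any of them, against 10.02% and 10.4% of inside footprints. These shares are per footprint, and outside footprints were narrower (mean 9.59 and 9.66 bp against 11.8 and 11.7 bp). The part of width in the gap was not tested. With 20 matches or more in outside footprints of each replicate, 10 motifs were compared with flanking bases 11 to 60 bp away that lay in no footprint. The density was higher in footprint than in flank in both replicates for 8 of the 10 and lower in both for 1, GAANNTTC, the heat shock factor element. Footprint bases were richer in G+C than flank bases, and the part of this in the ratios was not tested. No match says only that these letters were absent from a footprint.

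CTCF separated outside from inside footprints most among these 10. Outside footprints held 0.270 and 0.222 CTCF matches per kb in replicates 1 and 2, from 31 and 59 matches, against 2.21 and 1.65 per kb of inside footprints, from 2561 and 4222 matches, and the genome holds 0.00511 per kb. The density outside was 0.128 ± 0.0084 of that inside (SD, n = 2). Over flanks the CTCF ratio was 12.3 ± 4.1 outside and 48.6 ± 12.4 inside. A CTCF match lay in 0.176% and 0.102% of outside against 0.454% and 0.416% of inside footprints at promoters, and in 0.394% and 0.325% against 5.05% and 2.78% elsewhere, so the direction was the same in both classes. Among footprints of 20 bp or more the shares were 2.95% and 2.49% outside against 15.9% and 13.6% inside. Outside footprints with a CTCF match had median widths of 13 and 17 bp against 25 and 28 bp inside, and the interval near Tarbp1 printed above was the widest of the 6 that lay outside peaks in both replicates.

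The cAMP response element TGACGTCA, bound by CREB and related factors, came next among the 10 by ratio to flank, at 9.26 ± 5.92 outside and 12.7 ± 5.33 inside. Its outside ratios were 5.07 in replicate 1 and 13.4 in replicate 2, a wide spread that rests on 21 and 42 matches. Per kb it had 0.183 and 0.158 matches outside against 0.339 and 0.250 inside, and 0.00577 in the genome. GGGGCGGGG, the GC box of SP and KLF zinc-finger proteins, was the most frequent of the rule-named motifs in outside footprints of replicate 1, with 1.37 and 1.21 matches per kb outside against 1.31 and 1.04 inside and 0.0206 in the genome. Its ratio to flank was 4.47 ± 1.05 outside and 5.44 ± 1.26 inside, and 41 intervals with it were outside peaks in both replicates.

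CCGGAAGT, the site of ETS factors that is frequent in promoters, had 0.262 and 0.177 matches per kb outside against 0.268 and 0.225 inside, with a ratio to flank of 2.70 ± 0.37 outside and 2.98 ± 1.25 inside. CACGTG, the E-box of USF and MYC proteins, had 0.584 and 0.583 per kb outside against 0.642 and 0.644 inside, with ratios of 2.30 ± 0.57 and 2.75 ± 0.57. CAGCTG, an E-box of other basic helix-loop-helix proteins, had 1.05 and 1.46 per kb outside against 1.09 and 1.38 inside, with ratios of 1.66 ± 0.29 and 1.46 ± 0.14. The genome holds 0.00656, 0.105 and 0.403 matches per kb of these 3 in the same order. The counting intervals of the outside densities held the inside densities for all 3 in both replicates, so no difference was detectable at these counts. CAGATG, an E-box of NEUROD-type proneural factors, had 0.968 and 1.39 per kb outside against 1.28 and 1.91 inside and 0.836 in the genome. Of the 10 motifs, CTCF, TGACGTCA and CAGATG were less dense outside than inside by more than the counting interval in both replicates. The GC box and the heat shock element were denser outside in both, but the outside interval held the inside density of the GC box in replicate 1 and of the heat shock element in both. NRF1, NFI and EGR, picked after their values were seen, had 22 and 16, 18 and 34, and 12 and 29 matches in outside footprints. Per kb, NRF1 had 0.192 and 0.0602 outside against 0.117 and 0.0678 inside. NFI had 0.157 and 0.128 against 0.124 and 0.150, and EGR 0.105 and 0.109 against 0.155 and 0.116. The genome holds 0.000386, 0.00380 and 0.000715 per kb. For NRF1 and NFI the order of outside and inside differed between replicates, and for EGR the outside counting intervals held the inside densities.

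**Figure D5:**
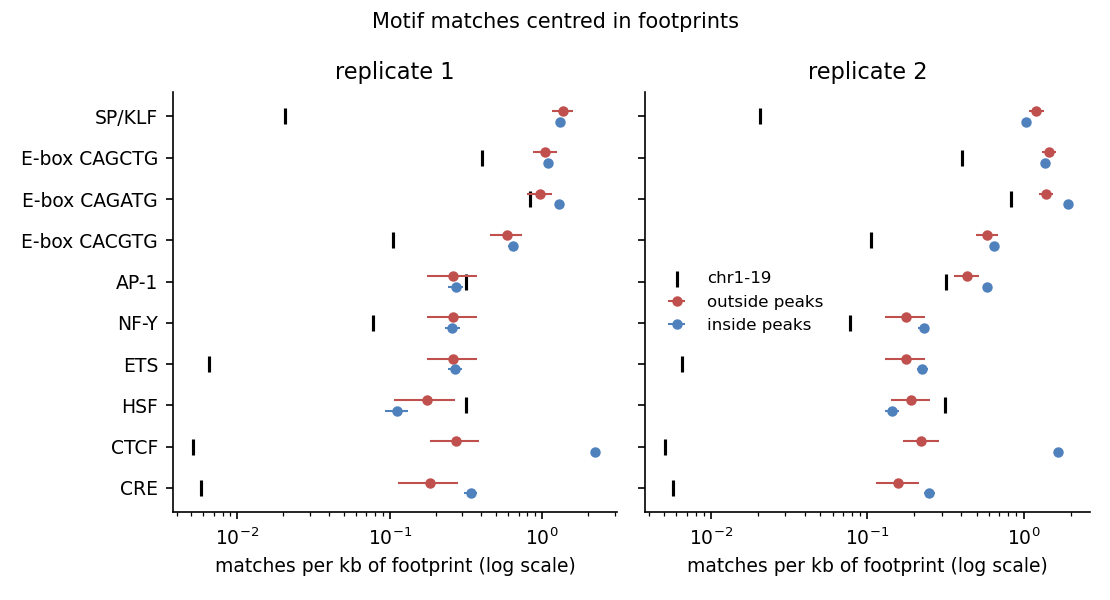
Matches per kb of footprint (x axis, log scale) for the 10 motifs with at least 20 matches in outside footprints of each replicate (y axis), 1 panel per replicate. Red, outside footprints; blue, inside footprints; bars, exact Poisson 95% intervals for counting error; black ticks, chromosomes 1 to 19. The CTCF points stand farthest apart, 0.270 against 2.21 per kb in replicate 1 and 0.222 against 1.65 per kb in replicate 2.

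Genes were scored by the outside footprints within them or up to 10 kb beyond either end. Of 20807 protein-coding genes, 5694 had at least 1 in each replicate (27.4%), and 2615 had at least 1 within 500 bp of a TSS in each replicate (12.6%). The counts below are read beside these shares and were not tested. The genes with the most were long ones. Gm20388, an annotated gene of 4435 kb whose span includes Gse1, had 51 and 146. Fgfr2, which encodes a receptor for fibroblast growth factors, had 15 and 54 over an annotated span of 2961 kb. Gm37240 had 10 and 35 over 1391 kb. Counts over such spans can include footprints that belong to other genes. Camta1, a calmodulin-binding transcription activator, had 8 and 30 and Auts2, a neurodevelopmental gene, 8 and 23. Mettl16 and Mnt, a MAX-binding repressor of the MYC network, are shorter neighbours whose windows overlap, and had 13 and 18, and 13 and 17. Fars2, Gse1 and Cacna1d, a calcium channel pore gene, completed the 10, with 11 and 24, 9 and 25, and 11 and 17.

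Among the gene lists, activity-regulated genes, which neuronal firing induces, had an outside footprint in both replicates at 11 of 20, and at the promoter at 6 of 20: Arc, Egr1, Fos, Jun, Junb and Per1. Arc, a regulator of glutamate receptor traffic, had 5 and 9 outside footprints in replicates 1 and 2, Fos had 6 and 3, and Dusp1 had 2 and 9. Excitatory neuron genes had one in both replicates at 12 of 20, with Tbr1, the deep-layer transcription factor, at 5 and 8, Bcl11b at 5 and 4, and Mef2c at 3 and 6. Synapse and ion channel genes did at 8 of 18, with Cacna1c at 3 and 15 and Grin2a at 3 and 10. These 3 lists stood above 27.4%, as did astrocyte genes at 5 of 15. Promoters of the 3 had a peak in both replicates at 20 of 20, 15 of 20 and 18 of 18 genes; the part of this in the counts was not tested. Among all genes with a promoter peak in both replicates, 21.2% had an outside footprint at the promoter in both, beside 6 of 20 activity-regulated, 4 of 20 excitatory neuron and 3 of 18 synapse and ion channel genes.

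Inhibitory neuron genes had an outside footprint in both replicates at 0 of 20. They had one in replicate 1 at 2 and in replicate 2 at 10, where Dlx5, a homeobox gene of interneurons, held 16 and Nxph1 held 8, against 0 at both in replicate 1. A peak at the promoter in both replicates was seen at 3 of these 20. Housekeeping genes had an outside footprint in both replicates at 4 of 18, with a promoter peak in both at 18 of 18, and Polr2a, the largest subunit of RNA polymerase II, had 6 and 11. Oligodendrocyte lineage genes did at 3 of 17, microglia genes at 2 of 14, vascular genes at 2 of 15 and liver genes at 2 of 15. Examples are Gfap at 2 and 4, Glul at 0 and 9, Myrf, the myelin regulatory factor, at 6 and 7, Cnp at 3 and 2, Cx3cr1 at 0 and 9, Vtn at 2 and 3, and Apoa2 at 6 and 0. Windows cover the annotated span, for example 56.5 kb for Dusp1 and 168.3 kb for Cx3cr1. They reach 10 kb past it and can hold a neighbour's footprints.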

How the data were processed

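DNase-seq was measured in 2 libraries of frontal cortex. Per the text listing deposited with the files, peaks, cleavage tables and footprints were made from each library's filtered alignments on mm10, and footprints used the cleavage table as well. The sources used here name no caller or version. The authors' p-value columns hold an FDR below 0.05 per interval in the cleavage tables and a constant 0.01 in the footprint lists, so footprints carry no rank. The authors' signal column of the peaks is a density scaled for read depth and was used only to rank peaks within a library.

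Overlaps of 1 bp or more, gaps (bases strictly between 2 intervals), midpoint positions (GENCODE M21) and exact motif matches (GRCm38.p6) were computed with Python 3.11.15, NumPy 2.4.6, pandas 2.3.3, SciPy 1.17.1 and numba 0.67.0, and checked on simulated intervals and sequence. Wilson and Poisson intervals cover counting error only, at 95%, and footprints of 1 library are not replicates. With 1 group of 2 libraries no test was run, and differences are read against the spread of the 2. The members, lists and motifs were chosen with earlier results of these data known.

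Named genes were the 10 with most outside footprints over both replicates, up to 3 per list, and the 10 with most at a TSS with no peak within 500 bp. Named sites were the 5 longest runs and 3 farthest footprints per library, and the widest shared site of each of 6 motifs. These 6 had the highest mean ratio among motifs with at least 20 matches in outside footprints of each replicate. Sequence on chromosome 18 or in a UTR was not printed, and a few of the selected genes are not reported here. Alternatives were the shorter peak list, overlap of at least 50%, peaks widened by 50 or 150 bp, leaving out chromosomes 2 and 9 or a replicate, other TSS windows, flanks and repeat rules. The shorter list and widened peaks for the promoter difference, flank bases outside all peaks, and the settings of the CTCF density ratio were alternatives chosen after seeing the data.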

Additional observations from a re-analysis of the deposited data

How the results depend on the processing

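The share of footprints outside peaks, 11.03%, depended on how peaks were drawn: it was 32.4% with the shorter list alone, 11.8% where at least 50% of a footprint had to be covered, 4.82% with peaks widened by 50 bp and 0.777% with 150 bp. The mean count per library, 19752, was 56941.5 with the shorter list, 8565.5 and 1433 with peaks widened by 50 and 150 bp, and 11966 to 27538 when a replicate was left out. The median distance was 68.5 bases to shorter-list peaks, against 43.5. The promoter share was 44.9% with 250 bp windows, against 55.7%. The promoter difference, outside minus inside, was 6.56 percentage points with 250 bp windows, 18.8 with peaks widened by 50 bp and -20.5 with the shorter list alone, against 11.2; the widened and shorter-list settings were chosen after seeing the data, and the cause of the turn was not tested. Counting matches within 5 bp of a footprint lowered the ratio to flank of 5 of the 6 named motifs by more than their SD, for CTCF to 7.42. Leaving out a replicate aside, the other settings moved the main results by less than 1 SD over the libraries or, for counts, by less than 1.5 times, in 16 cases. With 2 libraries, leaving out 1 cannot move a mean by 1 SD, so it is no check of stability: the share overlapping a footprint of the other replicate, 27.6% on average, was 15.8% to 39.3%. No paired analysis was possible because there is 1 group. Depth is unknown, and the lists of replicate 1 are shorter.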

Other observations

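Of protein-coding genes, 4081 in replicate 1 and 6573 in replicate 2 had an outside footprint within 500 bp of a TSS. At 46 genes that TSS had no peak of either list of either replicate within the same distance. Every outside footprint lay within 700 bases of a peak in replicate 1 and 587 in replicate 2. These promoters thus had a peak beyond the 500 bp window, and the low count follows in part from this. Among the 46, Acin1, a nuclear RNA-processing protein, had the most, with 2 in replicate 1 and 5 in replicate 2. Tmbim6 had 2 and 1, Rab2b and Rhoa, a small GTPase of the cytoskeleton, had 0 and 3 each, and Ccnd3 and Fth1, the ferritin heavy chain, had 0 and 2 each. Bag6, Cdc73, Cdk4, a cell cycle kinase, and Ldha, lactate dehydrogenase, had 1 in each replicate.

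The outside footprints farthest from a peak lay near a TSS. In replicate 1 they were 700 bases from a peak near Prkaa2 on chromosome 4, 535 bases in an intron of Tom1l2 and 498 bases at Ddx39b. The first 2 of these lay in peaks of replicate 2, and the interval near Prkaa2 also met a footprint there. In replicate 2 they were 587 bases from a peak near Zswim5, 561 at Kcnn2 and 532 at 1700123O20Rik, and 0 of the 3 met a footprint or a peak of replicate 1.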
